A study of Mus musculus with 6 samples.

Results

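The wild-type mouse oocyte at the germinal vesicle (GV) stage is described here from 3 of the 6 libraries of the series. All 3 libraries labelled wild type (Zar +/+) were taken, with every gene row of their tables. Some of the genes named below were chosen by their level, as given under the processing. Each library was made from polyA RNA of 10 GV oocytes of mice on a C57BL/6N background, with a QIAseq FX kit for single-cell RNA. The sources used here do not give the donors' age, any treatment of the animals or the way cumulus cells were removed. By their titles the libraries are biological replicates. Whether the pools came from separate animals is not stated, and the spread given below is that between libraries.

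A GV oocyte has finished its growth and is arrested in the prophase of meiosis, with an intact nucleus. It has accumulated mRNA and then stops transcribing, so that maturation, fertilization and the earliest divisions run on stored messages that are translated and degraded in a set order. RNA-binding proteins such as CPEB1, ZAR1, YBX2 and DDX6 hold many of these messages with short poly(A) tails until maturation. The libraries were made by way of poly(A), and how far a short tail lowers the count of a message was not tested.

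Counts assigned to genes summed to 39148833, 35358795 and 32126555 in replicates 1, 2 and 3. A gene was called detected where each of the 3 libraries had at least 10 counts, and absent where all 3 had 0. Of 53700 gene rows 14991 were detected (27.9%) and 22599 were absent (42.1%), and among 21929 protein-coding genes 12212 were detected (55.7%) and 4203 were absent (19.2%). These shares are the background for the counts of named groups below. Of the absent protein-coding genes 1200 had under 50% of their transcript sequence, in windows of 50 bases, to themselves, and 2187 had at least 90% unique windows and at least 90% of exon bases clear of other genes. A count of 0 allows up to 3 counts, which is 0.0766 CPM (the count relative to all gene counts of the library) in the deepest library and 0.0934 CPM in the shallowest. Such limits and all intervals from counts cover counting error only, since amplified reads are not independent molecules. In a pool of cells, fewer cells that carry a message and less of it per cell cannot be told apart.

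The most abundant message was Cpeb1, which encodes the RNA-binding protein that holds and later activates messages with a cytoplasmic polyadenylation element. It had 248999, 244521 and 218857 counts, which is 6360, 6915 and 6812 CPM. Ooep, a core protein of the subcortical maternal complex, followed with 5509, 6189 and 5981 CPM. The mitochondrial 16S rRNA mt-Rnr2 was the third in the ranking by mean, at 6780, 4630 and 4727 CPM, and it was the most abundant row of replicate 1. The ranges of these 3 rows overlapped in part: mt-Rnr2 lay above Cpeb1 in replicate 1 and below Ooep in the other 2 libraries. Anxa7, an annexin, reached 5279 ± 148 CPM (SD, n = 3), Ldhb, the lactate dehydrogenase subunit of oxidative tissues, 4582 ± 200 CPM, and Laptm4b, a lysosomal membrane protein, 4328 ± 201 CPM.

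The rest of the 20 most abundant rows held other messages known from oocytes. Bcl2l10, a BCL2 family member known from the ovary, was at 3999 ± 162 CPM and Zbed3, a partner of the subcortical maternal complex, at 3908 ± 155 CPM. The secreted growth factors Bmp15 and Gdf9, which act on the granulosa cells around the oocyte, lay side by side at 3139 ± 193 and 3124 ± 173 CPM. Spin1, a histone reader and maternal factor, was at 3279 ± 49.2 CPM, Bub1b, a kinase of the spindle checkpoint, at 2880 ± 214 CPM, and Sall4, a zinc finger transcription factor, at 2735 ± 174 CPM. Dnajc11, Prdx1, Rdx, C87977, Tiparp, Sdc1 and Uchl1 filled the list between 2743 and 3390 CPM. Of these 20 rows 19 were protein-coding, 16 stood among the top 20 of every library and 17 varied by under 10% between libraries. The exceptions in spread were mt-Rnr2 with a coefficient of variation (CV) of 22.6%, C87977 with 15.8% and Sdc1 with 11.9%.

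Counts grow with transcript length, so levels of different genes were compared on a TPM scale, that is counts per kilobase of all annotated exon bases, scaled to the same total in each library. On that scale mt-Rnr2 had the highest mean at 11436 ± 2542 TPM, and Bcl2l10 the next with 10474, 11331 and 11284 TPM. This order rested on replicate 1: without it, the TPM of mt-Rnr2 was 9969 and the TPM of Bcl2l10 was 11307. With the longest transcript as length Ldhb came first, since the TPM of Ldhb was then 9302 and that of mt-Rnr2 8999. Ldhb was at 9819.9 ± 396 TPM, Ooep at 9276 ± 582 TPM, Laptm4b at 7516 ± 372 TPM and Oosp1, an oocyte-secreted protein with a short transcript, at 7189 ± 140 TPM. Only 9 of the 20 leading rows by CPM were also among the 20 leading rows per length. The rows that entered per length included H1foo, the oocyte linker histone (5569 ± 263 TPM), Dppa3, which protects the maternal genome from demethylation after fertilization (5442 ± 161 TPM), and Mos, the kinase that starts the MAPK cascade of maturation (4636 ± 303 TPM). Members of multigene families also entered: Tcl1b1 and Tcl1b2 at 5298 and 3723 TPM, Obox2 at 5063 TPM, Fbxw24 and Fbxw15 at 3896 and 3763 TPM, and Oog3 at 3700.02 TPM. For such families the count of a single copy is uncertain. Obox2 had 34.9% unique windows, and by the length of its countable sequence the TPM of Obox2 was 12765, above every other row given here.

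Expression was spread over many messages. The 10 most abundant rows held 4.69 ± 0.0152% of counts, the 100 most abundant 20.7 ± 0.344% and the 1000 most abundant 58.9 ± 0.396% (SD, n = 3). It took 659 ± 13.5 rows to reach 50% of counts and 4281 ± 47.6 to reach 90%. Only 118 genes had a mean of at least 1000 CPM, together 22.6% of counts, while 2093 genes between 100 and 1000 CPM held 54.0%. In the plot of level against rank the 3 libraries run on top of each other from Cpeb1 down to messages of a few CPM.

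**Figure D1:**
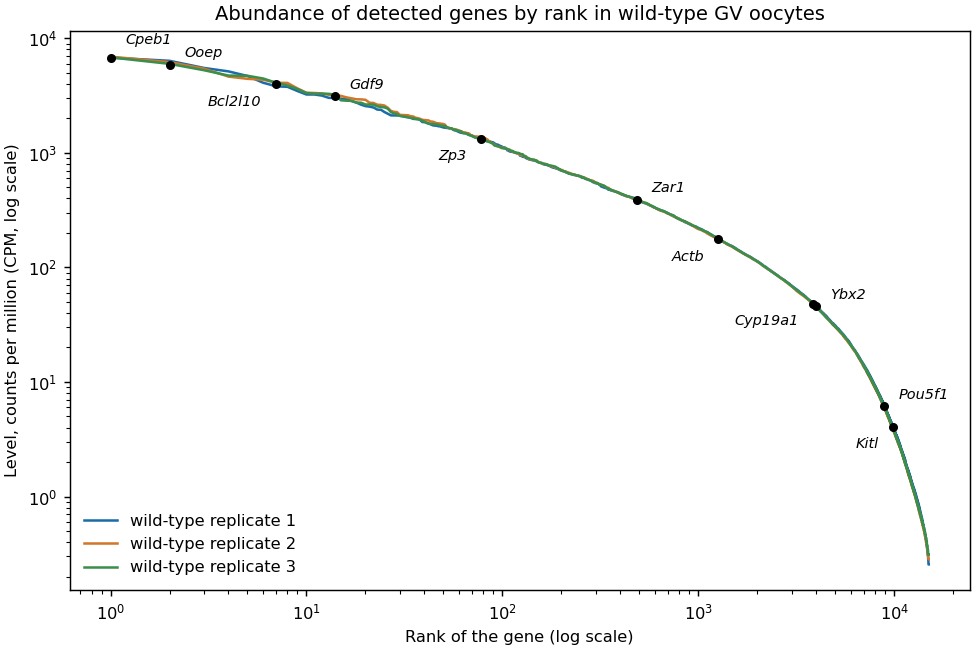
Level of each detected gene in CPM (y axis, log scale) against its rank (x axis, log scale), 1 line for each of the 3 wild-type libraries; black points mark named genes at their mean level and rank. Cpeb1 lies at rank 1, Zp3 at rank 78 and Zar1 at rank 486, and the lines of the 3 libraries lie close together over most of the range.

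The libraries labelled GV oocyte hold no other stage, so the stage itself could not be checked by markers. The 5 markers taken for oocytes were all detected and abundant. Besides Cpeb1 and Ooep these were Gdf9 at rank 14 by CPM, Zp3, a protein of the egg coat, at rank 78 with 1376, 1183 and 1430 CPM, and Zar1 at rank 486 with 389, 385 and 399 CPM. Zar1, the gene the series targets in its other libraries, was well counted in all 3 wild-type libraries, with a range of 385 to 399 CPM.

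The promoters of the most abundant genes were read from RefSeq (GRCm38.p6) as windows from 250 bases before to 50 bases after the annotated start. Of the 100 most abundant protein-coding genes per length, 72 matched a promoter in the table, with 88 starts. The letters TATAAA on the sense strand, starting between 45 and 20 bases before the start, occurred in 2 of these 88 windows (2.27%). The same search found 519 of 20120 windows of all protein-coding genes in the table (2.58%), 152 of 12321 windows of detected genes (1.23%) and 367 of 7799 windows of genes not detected (4.71%). No test was made of these shares. The 2 matches among the most abundant genes are shown because they are the only ones in that set. Both are 30 bases 5′ to 3′ on the gene's own strand, with the TATAAA letters in capitals, and in both the capitals begin 29 bases before the start (the Oog3 gene lies on the minus strand and the Prdx1 gene on the plus strand).
Oog3: agctgaaaattaTATAAAgggtcatagcag
Prdx1: aactttgtaggcTATAAAagcagctccccg
Oog3 is an oogenesin of a multigene family, and Prdx1 a peroxiredoxin that removes hydrogen peroxide; their levels were 3700.02 ± 158 and 3673 ± 327 TPM. The letters TAATTG on either strand, the core of sites bound by homeodomain proteins such as NOBOX, lay in 7.96% of the 88 windows and in 6.75% of all protein-coding windows. Windows of detected genes had them in 5.35% and those of genes not detected in 8.98%. The E-box letters CANNTG, searched on either strand, lay in 70.5% of the 88 windows and 68.7% of all protein-coding windows. For detected genes this share was 65.05% and for genes not detected 74.3%. A match is a description of these windows and no evidence of binding, and any overlap between the motifs was not removed.

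Proteins that store and repress messages made up a large group, with 33 of 34 listed genes detected. Their median level was 92.9 TPM, against 13.2 TPM over all detected protein-coding genes and 1.06 TPM over all protein-coding genes. Cpeb1 (5376 ± 255 TPM), Lsm14b (2555 ± 294 TPM), Dazl (1382 ± 55.3 TPM) and the Y-box protein gene Ybx1 (1042 ± 15.9 TPM) led. LSM14B is an RNA-granule protein and DAZL a germ-cell translational regulator. At the lower end were Ddx6, a helicase of repressed messages, at 10.3 ± 0.487 TPM, Fmr1 at 7.62 ± 0.317 TPM and Igf2bp1 at 0.503 ± 0.136 TPM. The row 4930578G10Rik had 0 counts in each library.

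Zar1 and its paralog Zar1l were of similar level per length, and their order was not fixed. Zar1 had 15245, 13612 and 12810 counts against 5093, 4643 and 3591 for Zar1l, whose annotated exons are shorter. On the TPM scale Zar1l was at 468 ± 41.5 and Zar1 at 380 ± 6.39, so that Zar1l held 55.1 ± 2.67% of the pair (52.0 to 56.9% by library). Zar1 held 53.1% by the longest transcript, 53.2% by the length of countable sequence and 75.9% with no length scaling. Zar1 had 71.6% unique windows and Zar1l 100%. Which of the pair is the more abundant thus depends on the length rule.

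For 117 families of related genes, listed by family names with 373 of 374 members found, the share of the leading member in the family's summed level per length was taken in each library. The families were chosen with earlier results of these data known. The number of dominant families thus describes this choice, and each share is of the listed members only. In 45 families 1 member held at least 90% in every library, here called dominant, and in 19 it held at least 99% on average. The same member led in all 3 libraries in 110 families. In the other 7 (polo kinase, SMC1, alpha tubulin, hexokinase, phosphofructokinase, HSP70 and SWI/SNF ATPase) the ranges of the leading member and the runner-up overlapped, and no order is given for them. Under 3 other length rules (longest transcript, no length, countable sequence) the leading member stayed the same in 97 families and changed under at least 1 rule in 20. The plot of leading shares shows 40 of the families.

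**Figure D2:**
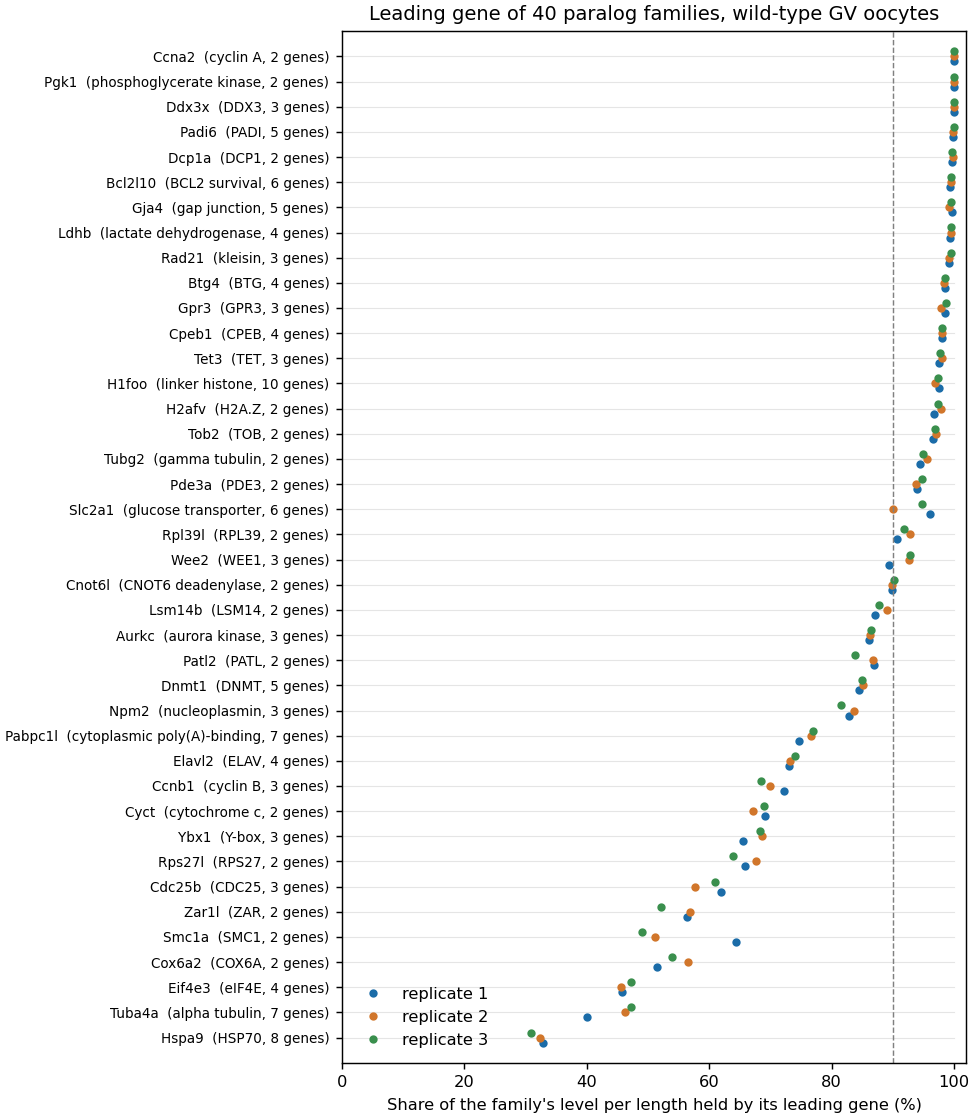
Share of a family's summed level per length held by its leading gene (x axis, percent), for 40 of 117 paralog families, with 1 point for each of the 3 wild-type libraries; the dashed line marks 90%. Padi6, Dcp1a and Bcl2l10 lie at the right edge in every library, whereas Zar1l holds 55.1% on average. For SMC1, alpha tubulin and HSP70 the gene named is the highest on average, with a range that overlaps that of the runner-up.

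In several families of RNA-binding proteins and of mRNA decay a single member held most of the level. Cpeb1 held 98.0 ± 0.0572% of the CPEB family, with Cpeb3 next at 81.5 ± 4.49 TPM. Dazl, at 1382 TPM, stood beside Boll at 0.295 ± 0.0679 TPM. Btg4, an adaptor that brings the CCR4-NOT deadenylase to maternal messages during maturation, held 98.5 ± 0.135% of the BTG family with 1855, 2144 and 1976 CPM, and the runner-up Btg2 was at 34.2 ± 6.32 TPM. Tob2 held 96.8 ± 0.293% of its pair, Dcp1a, a decapping cofactor, 99.7 ± 0.0551%, Zfp36l2, which recruits deadenylases to AU-rich messages, 93.8 ± 0.627%, and Igf2bp2 93.7 ± 0.568%. The catalytic deadenylase Cnot6l held 89.95 ± 0.221% against Cnot6, at the limit of the definition: its lowest library was at 89.8%. All of these had a runner-up outside their own range.

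Other families of the same group were shared more evenly, and a member known from oocytes led in some and not in others. Lsm14b held 88.0 ± 1.01% against Lsm14a and Patl2 85.8 ± 1.73% against Patl1. Pabpc1l, the embryonic poly(A)-binding protein, held 76.1 ± 1.24% of its family at 235 ± 10.2 TPM, with Pabpc4 at 57.0 ± 3.16 TPM and Pabpc5 absent. Pabpc4 had 45.2% unique windows, so its level is the less certain. Ybx1 held 67.5 ± 1.78% of the Y-box family, followed by Ybx3 at 421 ± 29.9 TPM, while Ybx2 (MSY2), known as the abundant germ-cell member, had 2085, 1517 and 1349 counts and 82.2 ± 10.9 TPM. For the cap-binding proteins Eif4e3 (399 ± 22.3 TPM) and Eif4e1b (317 ± 16.9 TPM), which is known from oocytes, were the highest, with Eif4e at 136 ± 2.84 TPM. Ybx2 and Eif4e were named after their values were seen.

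The decay list as a whole had 32 of 35 genes detected and none absent, with a median of 42.2 TPM. Btg4 (2622 ± 201 TPM), Dcp1a (1078 ± 107 TPM), Tob2 (697 ± 53.5 TPM) and Cnot11, a subunit of the CCR4-NOT complex (464 ± 12.4 TPM), were the highest. Btg3, Zfp36l1 and Tut4 stayed under 10 counts in at least 1 library. Tut4, a uridylyl transferase, had 26, 10 and 3 counts with 100% unique windows, and Zfp36l1 had 10, 16 and 9 counts with 45.6%. Edc3 passed with 16, 17 and 16 counts, a level of 0.268 ± 0.0281 TPM.

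Genes of the egg coat and of secreted factors had a median of 1455 TPM, with all 13 found genes detected. Of the 26 lists, 2 had a higher median, the 5 oocyte markers at 5175 TPM, which include Gdf9 and Zp3, and the mitochondrial rRNAs. Oosp1 (7189 ± 140 TPM), Gdf9 (5175 ± 274 TPM), Bmp15 (3452 ± 218 TPM) and Zp3 (3381 ± 322 TPM) led. The 3 zona pellucida genes were in the order Zp3, Zp2 (1534 ± 160 TPM) and Zp1 (582 ± 52.0 TPM), with no overlap between libraries, and Zp3 held 61.5 ± 0.424% of their sum. Gdf9 held 59.99 ± 1.68% against Bmp15 per length, whereas with no length scaling Bmp15 had 50.1%, so the order of this pair rests on length. Kitl, the ligand of the oocyte's KIT receptor, was the lowest with 176, 132 and 128 counts (2.32 ± 0.213 TPM). Astl, the protease that cleaves ZP2 after fertilization, stood at 325 ± 25.4 TPM.

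All 12 genes of the subcortical maternal complex and its relatives were detected and every one exceeded 100 CPM on average. This protein assembly lies under the oocyte membrane and is needed for the early divisions of the embryo. Ooep, Zbed3 (5895 ± 256 TPM), Padi6 (2796 ± 216 TPM) and Nlrp14 (1838 ± 101 TPM) led, and Nlrp2 was the lowest at 304 ± 13.1 TPM. The core members Tle6 and Nlrp5 stood at 857 ± 11.3 and 508 ± 53.8 TPM. Padi6 held 99.9 ± 0.0118% of the PADI family, whose runner-up Padi4 was at 1.46 ± 0.180 TPM. The Nlrp4 and Nlrp9 groups had no such leader: Nlrp4f held 35.3 ± 0.621% and Nlrp9b 39.7 ± 0.597%, and another copy led under at least 1 length rule in each group.

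In the list of prophase arrest, the families of the receptor, the phosphodiesterase and the gap junction had a dominant member, and those of protein kinase A did not. GPR3, the receptor that keeps cyclic AMP high in the arrested oocyte, was encoded by 12698, 11858 and 10731 counts (408 ± 8.78 TPM), and Gpr3 held 98.3 ± 0.441% against Gpr6 and Gpr12. The runner-up Gpr12 had 172, 243 and 136 counts. Pde3a, the phosphodiesterase whose activity ends the arrest, held 94.2 ± 0.527% against Pde3b with 233 ± 14.7 TPM. Gja4, the connexin that joins the oocyte to its granulosa cells, had 2151 ± 77.4 TPM and 99.5 ± 0.221% of the 5 gap junction genes. Of the regulatory subunits of protein kinase A, Prkar2a held 45.8 ± 1.25% and Prkar1a 32.7%. Its catalytic subunit Prkaca held 75.1 ± 2.02% against Prkacb per length, whereas with no length scaling Prkacb had 53.9%. Akap1, which anchors the kinase at mitochondria, had 679 ± 34.4 TPM. Of 22 listed genes 19 were detected and none was absent.

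The lowest members of this list included genes with a role in the follicle around the oocyte. Nppc, the natriuretic peptide precursor of mural granulosa cells, had 6, 10 and 1 counts. Its receptor gene Npr2, known from cumulus cells, had 21, 24 and 8 counts. Gnas, the stimulatory G protein gene downstream of GPR3, had only 46, 23 and 38 counts (0.301 ± 0.0909 TPM) with 81.4% unique windows. Adcy3, an adenylyl cyclase described in mouse oocytes, had 84, 26 and 53 counts, whereas Adcy9 had 5759, 5949 and 4693 counts (99.6 ± 8.46 TPM). Adcy3, Adcy9, Astl, Zp1, Tle6 and Nlrp5 were named after their values were seen.

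The kinases and cyclins of meiotic maturation were detected in 32 of 34 cases, with a median of 104 TPM. Mos (75962, 75591 and 61346 counts), Aurkc (2944 ± 119 TPM), Bub1b (2267 ± 169 TPM) and Ccnb1 (1131 ± 97.8 TPM) led. Aurkc, the aurora kinase of meiotic cells, held 86.2 ± 0.178% of the 3 aurora genes, but only 45.2% of its windows were unique. Wee2, the oocyte kinase that restrains CDK1, held 91.5 ± 1.94% with its lowest library at 89.3%. Ccnb1 held 70.2 ± 1.83% of the B cyclins, with Ccnb2 at 461 ± 9.99 TPM. Cdc25b, the phosphatase needed to resume meiosis, stood at 169 ± 8.13 TPM and 60.1 ± 2.15% of its family, but Cdc25a led by the longest transcript and with no length scaling. Ccna2 had 128 ± 3.53 TPM while Ccna1, a cyclin of male meiosis, had 0 counts in every library with 93.0% unique windows. Spdya had 2, 1 and 3 counts.

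Genes for sperm binding and egg activation ranged from 464 TPM to 0, with 18 of 20 detected. Camk2g, the calmodulin kinase of egg activation, had 464 ± 9.62 TPM and 99.9 ± 0.0661% of the 4 CaMKII genes, where Camk2a had 1 count in each library. Atp2a2, the calcium pump of the endoplasmic reticulum, had 346 ± 19.0 TPM and Cd9, a tetraspanin needed for fusion, 98.1 ± 5.37 TPM. Itpr2 led the inositol trisphosphate receptors per length at 42.1 ± 0.661 TPM, with Itpr1 at 24.0 ± 0.524 TPM. Plcz1, the phospholipase that sperm bring in, had 0 counts in every library with 97.7% unique windows.

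Of the 19 genes in the list of oocyte transcription factors, which also holds the receptor gene Kit, 17 were detected, and Obox homeobox genes led. Obox2 (5063 ± 281 TPM), Obox5 (2053 ± 69.2 TPM), Obox1 (1862 ± 108 TPM) and Sall4 (1663 ± 112 TPM) were the highest. Obox1 and Obox2 had 42.6% and 34.9% unique windows, so the split between them is uncertain. Pou5f1 had 239, 224 and 196 counts (9.25 ± 0.233 TPM). Sohlh1, a factor of early follicles, had 1, 2 and 7 counts, and Taf7l 0, 0 and 1. In the TBP family Tbp (41.3 ± 1.57 TPM) held 58.8 ± 4.64% and Tbpl2, the TBP relative of growing oocytes, was at 25.98 ± 4.95 TPM.

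Genes of early meiotic prophase, when chromosomes pair and recombine before birth, ranged widely. Of 31 found genes 24 were detected (77.4%, against 55.7% of all protein-coding genes). Their median was 4.65 TPM, between the 13.2 TPM of detected and the 1.06 TPM of all protein-coding genes, and 3 had a mean over 100 CPM. Syce2, a protein of the central element of the synaptonemal complex, had 58511, 55234 and 51128 counts (2649 ± 91.3 TPM, rank 59 by CPM) with 100% unique windows. Smc3 (97.5 ± 3.23 TPM), a cohesin subunit shared with mitosis, and Msh4 (37.4 ± 1.82 TPM), a protein of meiotic crossovers, were among the next highest. Syce3, Rec8 and Stra8 had 0 counts in every library with 100% unique windows, and Spo11, which makes the double-strand breaks, had 1, 0 and 1 counts. Syce2 thus lay far above the rest of its complex, and Syce1, another central element gene named after its values were seen, had 76, 47 and 67 counts.

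The cohesin subunits gave a mixed picture. REC8 is the meiotic kleisin, the ring-closing subunit that holds sister chromatids together until the meiotic divisions, and its gene was absent, while Rad21 (120 ± 4.03 TPM) held 99.3 ± 0.201% of the kleisin level. Rad21l had 18, 17 and 9 counts. Smc1a and the meiotic Smc1b were at 19.2 ± 6.22 and 15.2 ± 0.625 TPM, with Smc1a at 1774, 997 and 816 counts and Smc1b at 687, 667 and 596, so that replicate 1 alone had clearly more Smc1a. These counts are of RNA and say nothing of protein made earlier.

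Chromatin and DNA methylation genes were detected in 20 of 21 cases, and several had a dominant member. Dppa3 led the list, followed by Dnmt1, the maintenance methyltransferase, at 971 ± 21.5 TPM, Zfp57, which protects imprints, at 725 ± 16.8 TPM, and Uhrf1 at 279.5 ± 6.28 TPM. Dnmt1 held 84.9 ± 0.332% of the DNMT family, with Dnmt3l at 118 ± 5.09 TPM. Tet3, the dioxygenase that oxidizes 5-methylcytosine in the zygote, held 97.8 ± 0.194% of its family with Tet1 at 2.04 ± 0.0889 TPM, and Uhrf1 99.5 ± 0.0246% of its pair. Among chromatin proteins H1foo held 97.3 ± 0.372% of the 10 linker histone genes, H2afv 97.3 ± 0.585% against H2afz, and Npm2, the nucleoplasmin that decondenses sperm chromatin, 82.6 ± 1.03% with 825 ± 21.2 TPM. Tdg, a DNA glycosylase, was below the detection limit with 4, 4 and 1 counts and 58.8% unique windows.

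Of 25 genes for small RNAs and transposon control 24 were detected, all but Piwil4 with 7, 2 and 3 counts. Gtsf1, a partner of PIWI proteins, was the highest at 1694 ± 112 TPM, followed by Tdrd1 (390 ± 4.84 TPM), Henmt1 (261 ± 21.3 TPM) and Dicer1 (165 ± 11.6 TPM). Piwil1 held 98.7 ± 0.296% of the 3 PIWI genes at 119 ± 14.5 TPM. Of the argonautes Ago3 had the most per length (17.2 ± 0.456 TPM, 53.2 ± 1.66%) and Ago2, the slicer, 12.4 ± 0.807 TPM.

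Replication-dependent histone messages, which normally end in a stem loop rather than a poly(A) tail, were detected in 8 of 15 cases (53.3%) and absent in 3. Their median of 0.944 TPM lay beside the 1.06 TPM of all protein-coding genes, and their detected share beside the background of 55.7%, so that neither sets the list apart. Hist1h2bc was the highest at 71.9 ± 10.5 TPM.

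Further dominant members belonged to cell survival and to metabolism. Bcl2l10 held 99.5 ± 0.0939% of 6 survival genes of the BCL2 family, with Bcl2l1 at 47.1 ± 7.88 TPM. Ldhb held 99.4 ± 0.0751% of the lactate dehydrogenases, whose runner-up was the testis gene Ldhc at 34.5 ± 6.51 TPM. Ldha, the form of glycolytic tissues, had 227, 278 and 51 counts (5.17 ± 3.26 TPM) and was named after its values were seen. Slc2a1 held 93.6 ± 3.16% of 6 glucose transporter genes at 34.1 ± 1.26 TPM. Of the hexokinase genes, Hk2 had 54, 73 and 61 counts (1.00 ± 0.205 TPM), Hk1 had 7, 3 and 0, and Hk3 had none. The oocyte is known to take up pyruvate made by its cumulus cells in place of glucose.

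The glucose and pyruvate list ran from Ldhb, Mdh2 (1313 ± 67.8 TPM), Cs (336 ± 15.7 TPM) and Mdh1 (291 ± 57.1 TPM) at the top, which act on lactate or in mitochondria and the malate shuttle, down to Hk1 and Slc16a3. Of its 32 genes 30 were detected. In glycolysis itself Gapdh had 26.9 ± 0.689 TPM and Pgk1 24.4 ± 2.67 TPM. Pgk2 and Pklr, the testis and the liver members of their pairs, were absent, so that Pgk1 and Pkm held 100% of each pair in every library.

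Members known mainly from testis or muscle led some families and not others, and those described here were picked with their values known. Cyct, the testis cytochrome c, held 68.4 ± 1.10% per length with 588, 505 and 461 counts, against 1362, 1284 and 1080 counts for the ubiquitous Cycs. Their order turned with no length scaling, where Cycs had 70.6%, and Cycs had 73.9% unique windows against 100% for Cyct. Cox6a2, the heart and muscle subunit of cytochrome c oxidase, stood at 121 ± 6.77 TPM beside Cox6a1 at 103 ± 4.65 TPM, without overlap between libraries. Rpl39l, the ribosomal protein variant known from male germ cells, held 91.7 ± 1.02% with 7049, 6329 and 6238 counts against 1248, 856 and 962 for Rpl39. Slc25a31, the germ-cell ADP/ATP carrier, was at 309 ± 20.4 TPM behind Slc25a5 at 468 ± 16.1 TPM. Of other testis forms, Pdha2 held 10.8 ± 4.82%, Cox6b2 17.4 ± 2.10%, Cox8c 22.4 ± 11.01% and Rpl10l 1.97 ± 0.502% of their families, all behind the common member. In a further ribosomal pair Rps27l led Rps27 with 65.8 ± 1.90%.

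Cytoskeletal families ranged from a single leader to an even share. Tubg2 held 94.95 ± 0.608% against Tubg1, which is the usual gamma tubulin of dividing cells, and Fmn2, the formin that positions the meiotic spindle, held 97.6 ± 0.207%. Tubb4b led the beta tubulins with 1954 ± 25.5 TPM and 58.1 ± 0.792%, although its windows were 58.7% unique. Tuba4a and Tuba3a overlapped at 310.2 ± 43.5 and 259 ± 39.3 TPM. Anxa7 held 95.6 ± 0.429% of the 8 annexin genes.

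Dominant members in general cell functions included Ddx3x, an RNA helicase encoded on the X, with 99.9 ± 0.0100% of its family at 1134 ± 31.4 TPM. Sod1 held 95.8 ± 0.479% of the superoxide dismutases, Ezh2, a histone H3 methyltransferase, 92.5 ± 0.743% of its pair, Map2k1, the kinase between MOS and ERK, 96.7 ± 0.162%, and Stau1 93.9 ± 0.505%. Other families were shared, such as HSP90, where Hsp90aa1 held 59.4 ± 0.417%, eIF4A, where Eif4a3 held 66.8 ± 1.03%, and the EMI inhibitors of the anaphase-promoting complex, where Fbxo5 held 67.5 ± 1.76% against Fbxo43. Elavl2 held 73.4 ± 0.603% of the ELAV genes, ahead of Elavl3 at 26.3 ± 1.05 TPM.

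Of the 373 family members 17 were absent, 1 in each of 17 families. The absent share of all protein-coding genes was 19.2%, so absence was rarer among the members of these chosen families. Besides the 6 already given they were Eef1a2, Celf6, Zfp36l3, Plk5, the linker histone gene Hist1h1b, Pgam2, Slc16a8, Cox7a1, Cox8b, Rpl3l and Sod3. Many of these are known as forms of a single tissue, such as Pgam2, Cox7a1, Cox8b and Rpl3l in muscle. A count of 0 in such a gene leaves room for up to 3 counts per library.

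Ribosomal protein genes were detected in 59 of 60 cases with a median of 101 TPM, and their levels ran from 2298 ± 133 TPM for Rpl27 to 11.4 ± 1.15 TPM for Rpl18, the lowest detected. Rpl4 (1809 ± 552 TPM) differed between libraries, with 29406, 49528 and 34782 counts. Rpl24 was below the detection limit with 9, 6 and 5 counts, 48.2% unique windows and 53.0% of its exon bases clear of other genes. Most of these proteins are made in equal numbers for the ribosome, while the levels per length of the detected genes differed up to the size of this range. Rpl27 had 76.5% unique windows and Rpl18 82.3%, and the part of reads with more than 1 alignment in these differences was not tested. All 50 nuclear genes of oxidative phosphorylation were detected, with a median of 84.2 TPM. They ran from Uqcrh at 908 ± 51.7 TPM to Uqcrc1 at 1.71 ± 0.298 TPM.

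Genes often used to scale measurements differed in level. Of 20 such genes 19 were detected, and Ubb was the highest at 592 ± 23.0 TPM. Actb had 7654, 5555 and 5681 counts and lay at rank 1266 by CPM. Gapdh, at 26.9 TPM, lay at rank 4772, and Gusb had 17, 7 and 8 counts with 100% unique windows. Eef1a1 held 100% of the eEF1A pair at 512 ± 21.9 TPM, with Eef1a2 absent.

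Genes that mark the 2-cell stage and zygotic activation were mostly low or absent. Only 9 of 23 found genes were detected (39.1%, against 55.7% of all protein-coding genes) and 5 had no count. Tcstv1 (209 ± 5.13 TPM), Zfp750 (194 ± 6.25 TPM), Dppa2 (69.2 ± 2.196 TPM) and Tcstv3 (53.2 ± 6.88 TPM) were the exceptions at the top. Zscan4b, Usp17ld, Tdpoz2, Tdpoz3 and Tdpoz4 were absent. These are multicopy genes with 9.88% to 58.8% unique windows. Reads with more than 1 alignment were 14.6 ± 0.265% of the reads that entered the counting. They were not counted, and their part in these levels was not tested.

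Of the 21 pluripotency genes 12 were detected (57.1%, against 55.7% of all protein-coding genes), so that this count does not set the list apart. Sall4 led, followed by Dppa5a (229 ± 16.9 TPM), Esrrb (86.5 ± 7.02 TPM) and Lin28a (69.8 ± 2.94 TPM). Fgf4 and Utf1 had 0 counts in every library and Mycn 1, 1 and 0, each with 100% unique windows, and Tdgf1 had 0, 2 and 0. Nanog, named after its values were seen, had 3, 0 and 1 counts. Sox2, likewise named after its values were seen, just passed with 43, 46 and 19 counts.

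**Figure D3:**
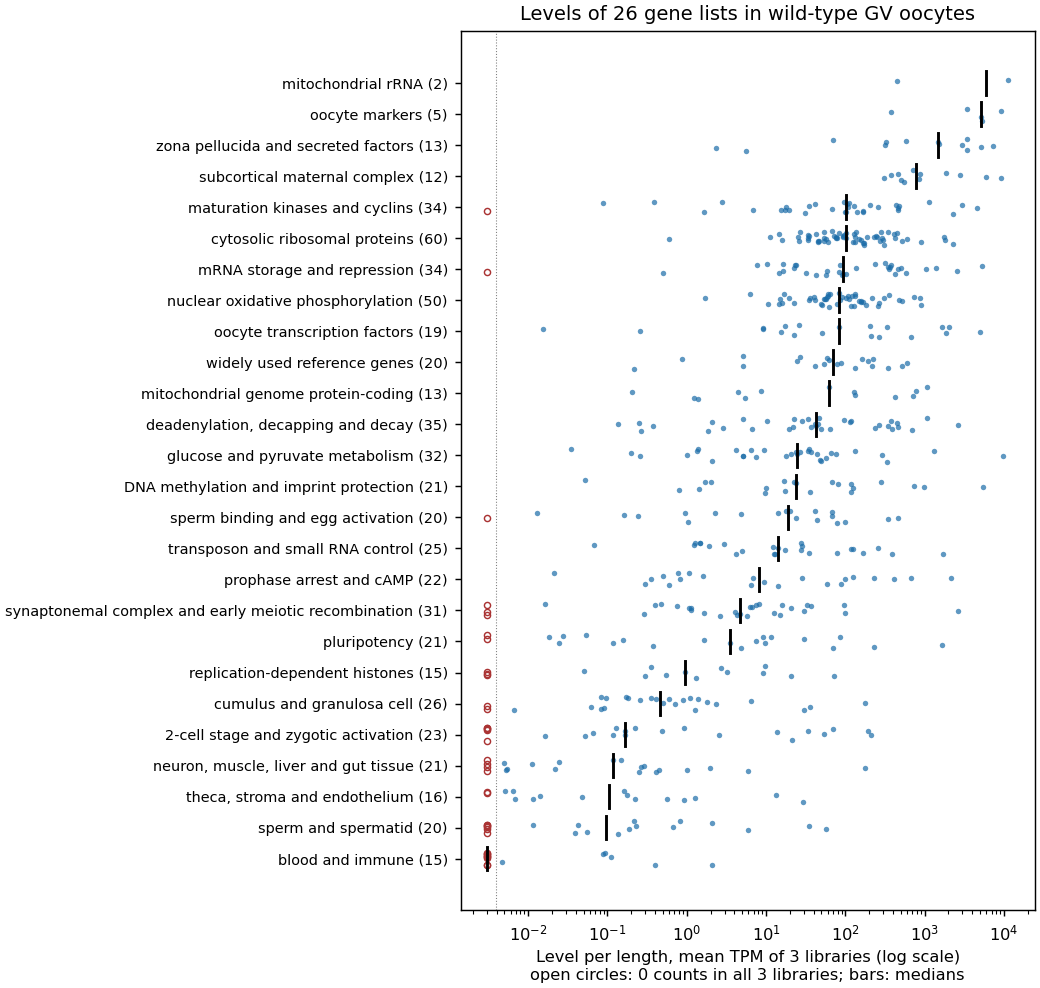
Mean level per length of each gene (x axis, TPM, log scale) in 26 gene lists, ordered by their median (black bar; number of genes in parentheses); open circles are genes with 0 counts in all 3 wild-type libraries, drawn at the left. The lists of secreted factors and the subcortical maternal complex lie at medians of 1455 and 785 TPM, and the blood list has a median of 0.

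Markers of other cells were low as lists, with single genes that stood out. Of the 26 cumulus and granulosa genes 12 were detected (46.2%) and 2, Ptx3 and Tnfaip6, were absent. The summed level of the list was between 253 and 273 TPM in a library, most of it from Esr2, an estrogen receptor (178 ± 8.67 TPM), with Cyp19a1, the aromatase gene, at 36.0 ± 4.11 TPM and Nr5a2 at 29.9 ± 1.85 TPM. Esr2 had 6650, 6572 and 5722 counts and Cyp19a1 1708, 1661 and 1746. Defining granulosa genes were at or near 0: Fshr had 8, 1 and 4 counts, Amh 3, 2 and 0, and Foxl2 6, 3 and 0, all 3 named after their values were seen. Whether the levels of Esr2 and Cyp19a1 come from the oocytes or from attached cells was not tested.

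The other marker lists were lower still. In the list of theca, stroma and endothelium 7 of 16 genes were detected and the sum was between 43.2 and 49.4 TPM, led by Myh11 at 29.4 ± 2.93 TPM. Insl3 and Rgs5 were absent, and Cyp17a1, the theca enzyme, named after its values were seen, had 0, 1 and 0 counts. In the blood list 1 of 15 genes was detected, Cd68 with 25, 16 and 41 counts, 9 were absent and the sum was between 2.18 and 3.84 TPM. The 4 globin genes Hba-a1, Hba-a2, Hbb-bs and Hbb-bt, named after their values were seen, were among the absent, with at most 46.8% unique windows.

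Of 20 sperm and spermatid genes 5 were detected and 6 were absent, with a sum of 93.9 to 109 TPM, of which Odf2, a centrosomal as well as sperm tail gene, made 56.5 ± 1.88. Odf1 had 12, 22 and 158 counts, high in replicate 3 alone. Of 21 neuron, muscle, liver and gut genes 5 were detected and 4 were absent. Vil1, the villin gene of microvilli, accounted for most of the sum of 154 to 214 TPM, with 8370, 5409 and 6445 counts (179 ± 29.7 TPM). The detected share of each of these 5 lists lay below the 55.7% of all protein-coding genes.

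The mitochondrial genome gave a small share of counts, 0.849% in replicate 1 and 0.587% in the lowest library, with a mean of 0.676 ± 0.150%. Most of it was rRNA (0.551 ± 0.125%), nearly all mt-Rnr2 with 265427, 163706 and 151877 counts. The 13 protein-coding genes held 0.126 ± 0.0250%. Of these mt-Co1 led with 24664, 15904 and 12447 counts (1065 ± 271 TPM), followed per length by mt-Nd1 (788 ± 164 TPM), mt-Cytb (716 ± 102 TPM) and mt-Nd4 (425 ± 42.2 TPM). In replicate 1 both rRNAs and each of the 10 detected protein-coding genes were at their highest CPM, while replicates 2 and 3 lay closer together. Replicate 1 was also the deepest library, and the part of depth in this difference was not tested.

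Mitochondrial genes that encode subunits of the same enzyme differed widely per length. mt-Co2 had 59, 37 and 26 counts (5.51 ± 1.73 TPM) and mt-Co3 71, 24 and 21 (4.495 ± 2.82 TPM), beside mt-Co1 at 1065 TPM, and all 3 encode core subunits of cytochrome c oxidase. mt-Atp6 had 87, 59 and 42, mt-Nd3 11, 4 and 1, and mt-Nd4l 1, 1 and 0. The windows of these 5 genes were 0% (mt-Co2), 0.136% (mt-Co3), 0.475% (mt-Atp6), 2.01% (mt-Nd3) and 1.21% (mt-Nd4l) unique among annotated transcripts, whereas mt-Nd1, mt-Cytb and mt-Nd6 had 100% and mt-Co1 48.9%. mt-Atp8 was also low, with 4, 1 and 3 counts, and its windows were 100% unique with 78.9% of its bases clear of mt-Atp6. Levels of these genes are thus uncertain, and the cause was not tested. The genes mt-Atp6, mt-Nd6 and mt-Co2 were named after their values were seen.

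**Figure D4:**
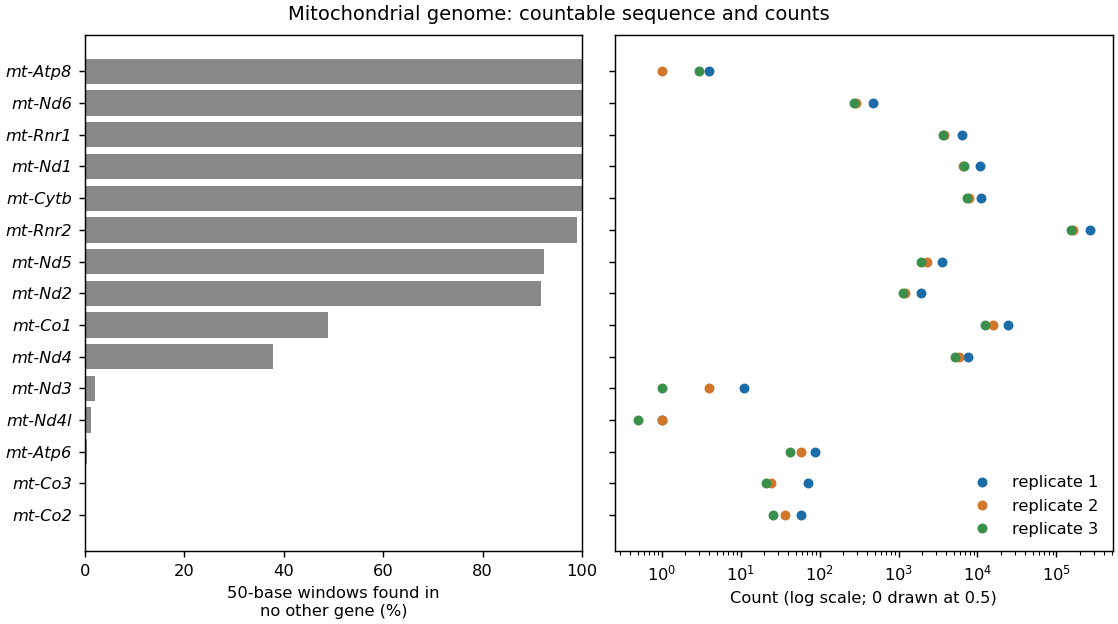
Left, share of each mitochondrial gene's 50-base windows found in no other annotated gene (x axis, percent); right, its count in each of the 3 wild-type libraries (x axis, log scale, 0 drawn at 0.5). Genes with under 3% unique windows (mt-Co2, mt-Co3, mt-Atp6, mt-Nd4l and mt-Nd3) have under 100 counts, and mt-Atp8 has 100% unique windows and 4, 1 and 3 counts.

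The 3 libraries resembled each other closely. Across the 14991 detected genes, which are not independent replicates, Pearson's r of log2 CPM was 0.991 to 0.992 and Spearman's rho 0.988 to 0.989 for the 3 pairs, as a description. The number of detected genes that differed over 2-fold in a pair was 247, 259 or 296. Counts of pairs differed by more than counting noise, with a chi-square of 14.2 to 20.6 per degree of freedom. The tables are thus not copies of each other, but this cannot tell separate pools from repeat libraries of the same pool; the 3 were kept as separate samples because their labels give them so. The biological coefficient of variation, which is the spread beyond counting error, was 15.8% over genes that passed the count filter. It was 23.9% for genes of 1 to 10 CPM, 12.3% from 10 to 100 CPM, 6.84% from 100 to 1000 CPM and 6.98% above.

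Most genes with enough counts were steady. Of 10674 genes averaging 100 counts or more 6570 (61.6%) had a CV under 10%, 513 (4.81%) had at least 30% and 138 (1.29%) at least 50%. Of the 513, the highest library was replicate 1 for 215, replicate 2 for 146 and replicate 3 for 152, so the variable genes were not confined to a single library. The median CV of all detected genes was 10.6%, where counting alone would give 5.01%, and for the 5257 genes with at least 1000 counts it was 5.37% against 1.86%.

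Each of the 10 most variable genes was high in a single library. Lrrc32, a membrane anchor of latent TGF-beta, had 55, 1134 and 52 counts, and Gbp5, an interferon-induced GTPase, 65, 1059 and 41. Both were high in replicate 2 alone, as was Rnaseh2a, a subunit of RNase H2, with 282, 1437 and 255. Replicate 1 was the high library for Cd1d1, an antigen-presenting molecule (2041, 135 and 238 counts), Hspb6, a small heat shock protein (328, 39 and 41), Selenop, a selenium carrier (467, 61 and 93), and Pde6a, a phosphodiesterase of rods (334, 45 and 53). Replicate 3 was high for Ccl2, a chemokine (78, 50 and 289 counts), and for Rab43 (114, 15 and 402), which had 25.5% unique windows. No library was the high one for all 10.

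**Figure D5:**
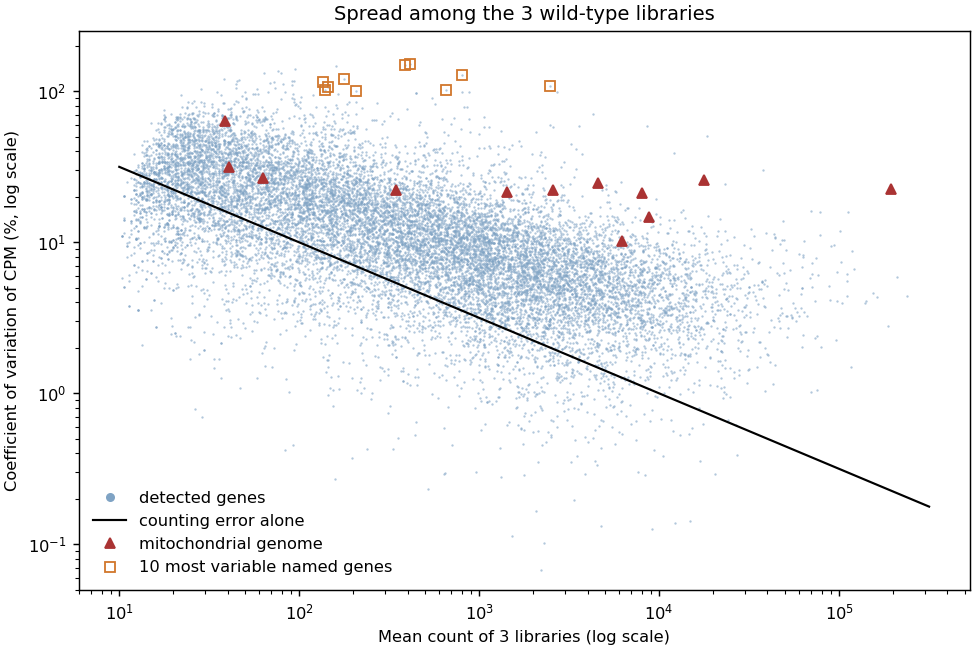
Coefficient of variation of CPM over the 3 wild-type libraries (y axis, percent, log scale) against the mean count (x axis, log scale) for each detected gene; the black line is counting error alone, triangles are mitochondrial genes and squares are the 10 most variable named genes. Most genes lie above the line at high counts, the mitochondrial genes mt-Nd4 and mt-Co1 lie at 10.3% and 25.8%, and Lrrc32 and Gbp5 are the highest squares near 150%.

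The steadiest genes among those averaging 1000 counts or more had less spread than counting alone would give. Imp4, a protein of ribosome assembly, had 2427, 2191 and 1989 counts, which is 62.0, 62.0 and 61.9 CPM and a CV of 0.0677%, where counting alone would give 2.13%. Atp7a, a copper pump, Cdc7, a replication kinase, Arap2, Ndufa8, Gnb4, Acbd3, Kpna6, Tmem41b and Mrpl10 completed the 10, with a CV of at most 0.280%. These were picked as the lowest of 5257 genes, so their own CV understates their spread. Genes of at least 1000 CPM, which were not picked by their spread, had a median CV of 4.73%, where counting would give 0.427%.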

How the data were processed

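PolyA RNA-seq libraries of 10 wild-type GV oocytes each were analysed (n = 3; grouped by the labels). Each library has a table of raw read counts by gene, deposited by the authors without normalization. The submitters' processing notes name STAR 2.7.8a, HTSeq 0.13.5, cutadapt 2.8, bcl2fastq 2.20.0.422 and build mm39. The sources used here do not give the annotation release, strand setting or read filter, so counts of overlapping, antisense and near-identical genes are uncertain.

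Summary rows of the counting were left out of library sizes: of all reads 5.52 ± 0.156% lay outside genes, 4.22 ± 0.0123% in more than 1 gene and 14.6 ± 0.265% had more than 1 alignment. Symbols matched 52093 of 53700 rows; rows with none held at most 0.193% of counts. CPM used the sum of gene counts, and TPM the union exon length of GENCODE M21 (52147 rows), which is built on GRCm38, so no coordinates are printed. Uniqueness is the share of a gene's 50-base transcript windows found in no other gene's transcripts. The biological coefficient of variation came from edgeR 4.0.16 in R 4.3.3 (TMM factors, intercept only), whose script was tested on simulated data; the rest used Python 3.11.15. With 1 group no comparison was tested and no p-value is given. Correlations used log2 of CPM plus 0.5.

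The members, 26 gene lists and 117 families were chosen with earlier results of these data known. Named genes were the 20 highest by CPM and per length, family leaders, runners-up and absent members, up to 4 highest and 4 lowest of each list, the 10 most and 10 least variable, and the oocyte markers. Those outside the rule, chosen after their values were seen, are the genes marked so in the text. A few genes within the rule are not reported here. Depth was 32126555 to 39148833 counts, so 10 counts are at most 0.311 CPM. Alternatives were other length rules, detection limits, scaling factors and leaving out each library or the mitochondrial genome; the countable length was added after the data were seen.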

Additional observations from a re-analysis of the deposited data

How the results depend on the processing

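The share of the 10 most abundant rows was 4.51% without the mitochondrial genome and 3.85% with ranks taken per length, and that of the 100 most abundant was 17.98% with ranks per length. The mitochondrial share was 0.126% from protein-coding rows alone. The biological coefficient of variation was 20.2% with no filter on low counts and 11.8% for genes of at least 100 counts; the filter itself sets which genes enter. The X to autosome ratio was 0.596 for genes above 0 in every library, 0.766 for genes of at least 1 CPM and 0.618 with the longest transcript, and the cause was not tested. Leaving out each library in turn gave 15220 to 15490 detected genes, 24346 to 24825 absent genes, 4.68 to 4.70% and 20.5 to 20.9% of counts in the 10 and 100 most abundant rows, a mitochondrial share of 0.590 to 0.721%, 45 to 46 dominant families, a coefficient of variation of 14.8 to 16.9% and an X to autosome ratio of 0.677 to 0.685. Dominant families numbered 47 by the longest transcript, 45 with no length and 45 by countable length, and detected genes 21502 at a minimum of 1 count and 11525 at 50. Of the 117 leading shares, 74 moved by more than their spread with the longest transcript, 87 with no length and 49 with countable length, so levels per length carry an error of annotation beyond the SD given. The 20 leading CPM values stayed within their spread under TMM and RLE factors. No paired analysis was possible because only 1 group was described and no value comes from a test. Genes near 10 counts rest on few reads, and levels of genes with few unique windows are uncertain.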

Other observations

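Messages that do not code for protein were a small part of the libraries. Long intergenic RNAs held 1.11 ± 0.00841% of counts (SD, n = 3), with 782 of 5610 annotated rows detected, and antisense RNAs 0.272 ± 0.00133%. The long intergenic RNA C86187 had 65226, 71040 and 55462 counts, a mean of 1801 CPM and rank 42 of all rows. Gm1965 (646 ± 29.3 CPM) and Gm1070 (626 ± 38.3 CPM) followed, and the antisense row Arhgap20os had 492 ± 19.2 CPM. Among pseudogenes Speer5-ps1 had 392 ± 17.0 CPM and Gm15681 267 ± 51.5 CPM, the latter with 12724, 8059 and 7932 counts and so highest in replicate 1. All of these were named after their values were seen, and without a known strand setting reads of an antisense row cannot be told from those of its partner.

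The median level per length of detected protein-coding genes was 9.06 ± 0.216 TPM for 421 X-linked genes and 13.3 ± 0.142 TPM for 11762 autosomal genes, a ratio of 0.682 ± 0.00894. The ratio was below 1 in each of the 3 libraries (0.676 to 0.692) and moved with the filter on low levels.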
